A study of Mus musculus with 6 samples.

Results

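Tmem41b and 9 core autophagy genes, 10 of the 26167 genes in the deposited tables, were followed in mouse hepatoma tumors with and without sorafenib (Sora), an inhibitor of several protein kinases. Tmem41b was picked on its steady rise in these same tumors, so its values are a description and were not tested. The other 9 genes (Vmp1, Atg9a, Atg2a, Atg2b, Sqstm1, Map1lc3b, Becn1, Ulk1, and Gabarapl1) were selected by their roles, as partner scramblases, lipid transfer proteins, and core autophagy genes. All 10 passed the filter on low counts that left 16513 genes for testing.

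The RNA came from 3 control and 3 Sora-treated tumors of Hepa1-6, a mouse hepatoma line spelled Hep1-6 in the labels. The tumors of the study grew from cells injected under the skin of female C57BL/6J mice aged 6 to 8 weeks, and Sora was given ip at 10 mg/kg on days 9, 11, 13, and 15. No agent is named for the control tumors in the labels, which number the tumors but not the mice, so p-values measure the spread between these tumors. A tumor of 1 cell line under the skin has no surrounding liver and mixes cancer cells with host cells, so fewer cells of a type and less RNA per cell cannot be told apart.

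Autophagy encloses parts of the cell in a double membrane, the autophagosome, and delivers them to the lysosome. The membrane grows from lipid that ATG2 proteins carry out of the endoplasmic reticulum (ER), and scramblases move that lipid between the leaflets of each membrane. TMEM41B and VMP1 are ER scramblases with a VTT domain, which are also needed for lipoprotein export and lipid droplets in liver cells, and ATG9A is the scramblase on the growing membrane.

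Library totals spanned 31073830 to 36205814 reads. Counts of the fourth Sora-treated tumor had to be derived from FPKM, the reads per kilobase of gene scaled to library size, so the log2 fold changes of the members and the adjusted p of each called gene named are also given without it. Sora-treated tumor 3 lay nearest to the control tumors in 439 of the 543 genes called by edgeR (80.85%). Of 6 hepatoma markers, Alb was lower and Apoa1 higher in Sora-treated tumors, and Serpina1a was below 0.3 CPM (counts scaled to a common library size) in every tumor. The summed CPM of 5 fibroblast markers was 5557 to 5723 in control and 4082 to 5055 in Sora-treated tumors, with no gene called. The lower sum lay in Col1a1 (2092 to 2267 and 1264 to 1867 CPM) and Col1a2 (1753 to 1841 and 1056 to 1469 CPM), while Dcn, Pdgfra, and Lum overlapped between the groups. That of 5 red blood cell genes was 46.95 to 128.8 and 32.83 to 44.13, with Hba-a1 called lower. Leaving out Sora-treated tumor 4 ended the calls of Alb, Apoa1, and Hba-a1 (edgeR adjusted p = 0.175, 0.152, and 0.146). So did leaving out control tumor 4 (0.125, 0.114, and 0.0977) or Sora-treated tumor 2 (0.181, 0.101, and 0.0744). The call of Alb also ended without control tumor 3 (0.0935), that of Apoa1 without control tumor 1 or 3 (0.127 and 0.112), and that of Hba-a1 without control tumor 1 or Sora-treated tumor 3 (0.0798 and 0.0512). The sums of leukocyte, endothelial, hepatoma, skeletal muscle, keratinocyte, and adipocyte markers overlapped between the groups, no marker was at 0 in all 6 tumors, and the part of these shifts in the results was not tested.

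Tmem41b lies on the minus strand of chromosome 7 (chr7:109971215-109986804, GRCm38.p6), with 9 annotated transcripts, of which Tmem41b-201 has 7 exons. None of its exons overlaps another gene. A processed copy, Tmem41b-ps, is annotated at chr9:90118879-90121163 and has no row of its own in the tables, so reads shared with it cannot be told apart. The RefSeq promoter table gives 1 window for Tmem41b (chr7:109986181-109986480, 300 bases, GRCm38.p6), and all of its bases fall within exons of the gene in GENCODE M21. It holds 4 GC boxes (GGGCGG, both strands searched), in close pairs. Both pairs are shown because the 3 windows of Vmp1, the partner scramblase, hold none, with the boxes in capitals and the run written 5′ to 3′ on the gene's strand.
Tmem41b pair 1, chr7:109986342-109986364: GGGCGGggccccggaggGGGCGG
Tmem41b pair 2, chr7:109986270-109986285: GGGCGGttctGGGCGG
Such a box stood in 35.7% of the 32851 RefSeq windows and in 6 of the 11 windows of 9 members, those of Tmem41b, Atg2b, Sqstm1, Map1lc3b, Ulk1, and Gabarapl1. CCAAT stood in 37.4% of all windows and in those of Tmem41b, Atg9a, and Atg2a. None of the 11 windows held CACGTG (the E-box, in 7.15% of all windows), TGACGTCA (the cAMP response element, 1.79%), TGAGTCA (the AP-1 element, 5.20%), or TGATGCAA (a C/EBP-ATF element, 0.895%). No window was found for Becn1. A match is a run of letters, and no binding was measured.

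Tmem41b was up-regulated about 2-fold in the values that led to its choice. Its level was 42.84, 42.72, and 46.28 CPM in control tumors 1, 3, and 4. In Sora-treated tumors 2, 3, and 4 it was 88.86, 71.15, and 98.54 CPM. Every Sora-treated tumor lay above every control tumor, with tumor 3 the lowest of the Sora-treated tumors and the control tumors close together. The means were 43.95 ± 2.02 and 86.18 ± 13.89 CPM (SD, n = 3), a 1.96-fold difference or 0.97 on the log2 scale. Behind these levels stood 1376 to 1689 reads in control and 2390 to 3266 in Sora-treated tumors. The spread was 4.60% of the mean in control and 16.1% in Sora-treated tumors, beside 2.16% from counting alone. The log2 difference was 1.09 when Sora-treated tumor 3 was left out and 0.87 when Sora-treated tumor 4 was.

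Of the 9 other genes, none was called in either direction at an adjusted p under 0.05 by edgeR, against 3.29% of all genes tested (1.94% higher and 1.34% lower). None was called by DESeq2 either (7.71% of all genes), by limma voom (3.2%), or by edgeR without Sora-treated tumor 4 (0.0306%). Vmp1, Atg9a, and Ulk1 had an unadjusted p under 0.05 in edgeR, 3 of 9, beside 17.22% of all genes tested. Groups did not overlap in these 3 and in Gabarapl1, 4 of 9, against 22.2% of all genes. Of the 9 log2 fold changes, 4 were above 0 and 5 below, with a median of -0.03 (all genes tested, -0.00037). The 95% intervals of all 9 together ran from 0.748-fold to 1.28-fold, so for each of these genes a 2-fold change in either direction lay outside its interval.

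Without Sora-treated tumor 4, the log2 fold change was 0.17 for Vmp1, 0.19 for Atg9a, 0.02 for Atg2a, and -0.01 for Atg2b. It was 0.10 for Sqstm1, -0.03 for Map1lc3b, -0.08 for Becn1, -0.17 for Ulk1, and -0.17 for Gabarapl1. The direction of each was that found with all 6 tumors. Without 1 of the other tumors, Atg2a turned to -0.08 (control tumor 3) or -0.0044 (Sora-treated tumor 2), and Atg2b turned to 0.01 (control tumor 4). The values of Atg2a and Atg2b thus had no fixed sign. With the sign kept, the value over the fits without 1 tumor ranged from -0.09 (without Sora-treated tumor 3) to -0.02 (without control tumor 3) for Map1lc3b. It ranged from -0.11 (without control tumor 4) to -0.05 (without control tumor 3) for Becn1, and from 0.10 (without Sora-treated tumor 4) to 0.20 (without Sora-treated tumor 2) for Sqstm1.

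**Figure D1:**
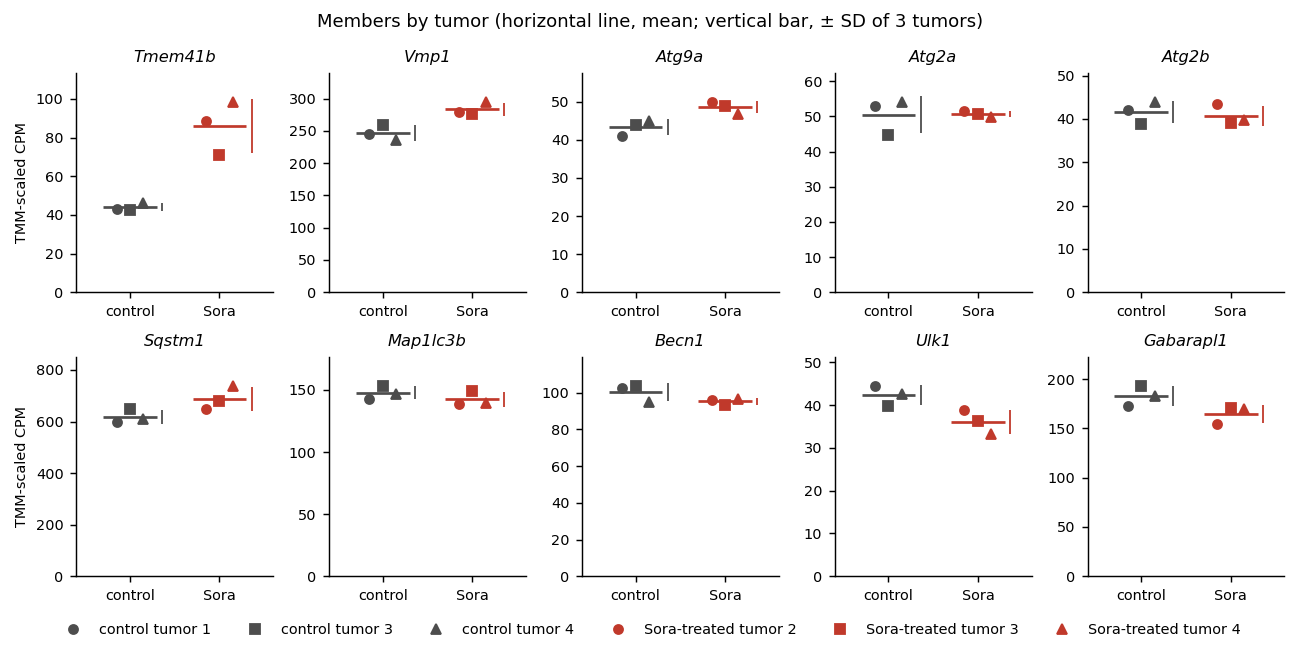
TMM-scaled CPM of the 10 genes (vertical axes, each starting at 0) in the control and Sora-treated tumors, with 1 point per tumor, the mean as a horizontal line, and ± SD as a vertical bar (n = 3). Tmem41b, picked on this contrast, stood at 42.72 to 46.28 CPM in control and 71.15 to 98.54 CPM in Sora-treated tumors.

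Vmp1, the other ER scramblase of the group, measured 245.4, 258.8, and 235.2 CPM in control tumors 1, 3, and 4. In Sora-treated tumors 2, 3, and 4 it measured 279.1, 275.8, and 295.0 CPM. All Sora-treated tumors lay above the control tumors, by a small margin. The means were 246.5 ± 11.8 and 283.3 ± 10.3 CPM (SD, n = 3), a log2 fold change of 0.20 (SE 0.07, 95% interval 0.04 to 0.36), which did not pass the test (edgeR adjusted p = 0.177). Its adjusted p in DESeq2, 0.101, was the lowest of any of the 9 genes over 19 other settings. Vmp1 (chr11:86583858-86683836, minus strand) overlaps an exon of the microRNA gene Mir21a on the same strand.

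Atg9a, whose protein scrambles lipid on vesicles that seed the autophagosome, measured 40.91, 43.95, and 45.02 CPM in control tumors 1, 3, and 4. It measured 50, 49, and 46.92 CPM in Sora-treated tumors 2, 3, and 4. The groups did not overlap, but control tumor 4 and Sora-treated tumor 4 nearly met. The log2 fold change was 0.17 (SE 0.07, 95% interval 0.00 to 0.33, edgeR adjusted p = 0.279). Atg9a (chr1:75180861-75192010, minus strand) shares exonic bases with Ankzf1 on the opposite strand and Gm29253 on its own, and whether counting used strand is not given in the sources used here.

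The 2 ATG2 genes encode the proteins that bridge the ER and the growing membrane and carry lipid across. Atg2a (chr19:6241478-6262304, plus strand) stood at 52.84, 44.62, and 54.17 CPM in control tumors and at 51.57, 50.84, and 49.87 CPM in Sora-treated tumors 2, 3, and 4. Atg2b (chr12:105613539-105685297, minus strand) stood at 41.97, 38.91, and 43.97 CPM and at 43.45, 39.14, and 39.77 CPM. For both genes the tumors of the groups were interleaved. The log2 fold change was 0.01 (95% interval -0.18 to 0.19) for Atg2a, with an edgeR adjusted p of 0.983. For Atg2b it was -0.03 (95% interval -0.21 to 0.15), with an edgeR adjusted p of 0.896.

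Ulk1, the kinase that starts autophagy, measured 44.52, 39.86, and 42.58 CPM in control tumors 1, 3, and 4. In Sora-treated tumors 2, 3, and 4 it measured 38.76, 36.2, and 33.25 CPM. All Sora-treated tumors lay below the control tumors, with Sora-treated tumor 2 close to control tumor 3. The means were 42.32 ± 2.34 and 36.07 ± 2.76 CPM (SD, n = 3), and the log2 fold change of -0.23 (SE 0.09, 95% interval -0.42 to -0.04) did not pass the test (edgeR adjusted p = 0.187). Over 19 other settings this value stayed between -0.28 and -0.17. Ulk1 lies at chr5:110784489-110810120 on the minus strand.

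Becn1 encodes the Beclin 1 subunit of the lipid kinase that marks the growing membrane. It measured 102.7, 103.7, and 94.72 CPM in control and 96.08, 93.29, and 96.79 CPM in Sora-treated tumors. Control tumor 4 lay among the Sora-treated tumors, and the groups overlapped. The log2 fold change was -0.07 (SE 0.07, 95% interval -0.23 to 0.08, edgeR adjusted p = 0.660). Becn1 (chr11:101288258-101302286, minus strand) shares exonic bases with Cntd1 on the opposite strand.

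Map1lc3b and Gabarapl1 encode ATG8 proteins, small proteins that are attached to lipid on the autophagosome. Map1lc3b (chr8:121590438-121598760, plus strand) stood at 142.8, 153.3, and 146.8 CPM in control and at 138.7, 149.3, and 139.6 CPM in Sora-treated tumors, with overlap. Gabarapl1 (chr6:129533192-129542331, plus strand) stood at 172.9, 193.2, and 182.7 CPM in control and at 154.0, 170.5, and 169.9 CPM in Sora-treated tumors. Here the groups did not overlap, and control tumor 1 nearly met Sora-treated tumors 3 and 4. The log2 fold change was -0.05 (95% interval -0.21 to 0.10, edgeR adjusted p = 0.775) for Map1lc3b and -0.15 (95% interval -0.32 to 0.02, edgeR adjusted p = 0.355) for Gabarapl1. Each of these genes overlaps exons of a gene on the opposite strand, Zcchc14 for Map1lc3b and 1700101I11Rik for Gabarapl1.

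Sqstm1 encodes p62, a cargo receptor that is itself degraded by autophagy and whose gene is also switched on by stress. It measured 597.0, 649.8, and 610.2 CPM in control and 647.3, 680.5, and 738.4 CPM in Sora-treated tumors. Sora-treated tumor 2 lay just below control tumor 3, so the groups overlapped. The means were 619.0 ± 27.5 and 688.7 ± 46.1 CPM (SD, n = 3), a log2 fold change of 0.15 (SE 0.08, 95% interval -0.03 to 0.33, edgeR adjusted p = 0.373). Sqstm1 (chr11:50200152-50210820, minus strand) shares exonic bases with Mrnip on the opposite strand, as Atg2b does with Gskip. These RNA levels say nothing of p62 or lipidated LC3 protein, which were not measured in these libraries.

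**Figure D2:**
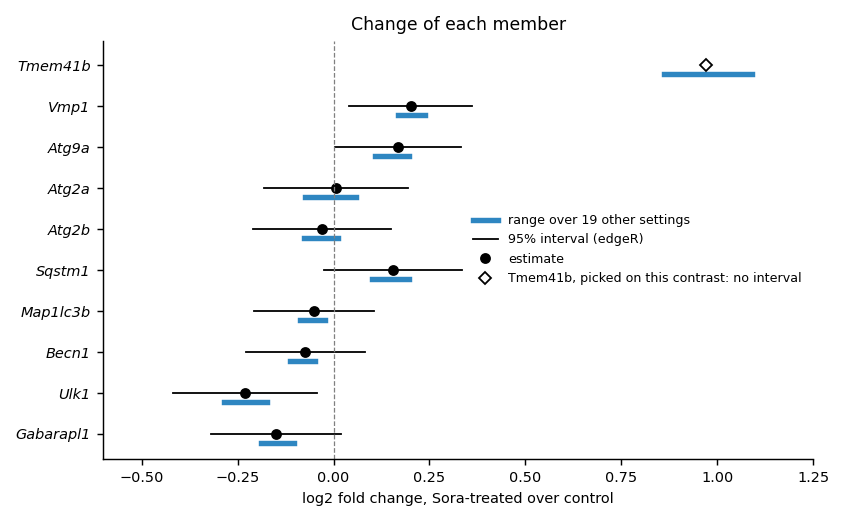
Log2 fold change of each gene, Sora-treated over control (horizontal axis), with the edgeR 95% interval as a thin line and the range over 19 other settings as a thick bar. The open diamond is Tmem41b at 0.97, shown with no interval, and the 9 other estimates lie between -0.23 and 0.20.

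Per length of gene, the levels of the 10 genes in control tumors fell into a high and a low set. In FPKM, the order of the control means was Sqstm1 (109.2), Gabarapl1 (103.5), Vmp1 (77.8), Map1lc3b (57.9), and Becn1 (41.7), followed at a distance by Atg9a (10.6), Tmem41b (8.76), Atg2a (8.06), Ulk1 (7.39), and Atg2b (4.09). Over the 3 control tumors, the neighbors in this order that overlapped were Tmem41b with Atg2a and Atg2a with Ulk1. In Sora-treated tumors Tmem41b was at 17.77, 14.28, and 19.01 FPKM, above Atg9a at 11.12 to 12.29 FPKM, and so moved from the seventh to the sixth place. Gabarapl1 and Vmp1 overlapped in Sora-treated tumors, with means of 92.6 and 88.7 FPKM.

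Among the 4 genes with a VTT domain, the share of the summed FPKM that came from Tmem41b was 8.26%, 8.13%, and 9.17% in control tumors 1, 3, and 4. In Sora-treated tumors 2, 3, and 4 it was 14.55%, 12.11%, and 15.33%. Vmp1 held most of the sum in both groups, 75.6% ± 2.1 (SD, n = 3) without and 73.1% ± 1.0 with Sora. Tmem64, a calcium-linked ER protein, held 8.89% ± 1.11 and 7.37% ± 0.71, and Tmem41a, a relative of Tmem41b, held 7.0% ± 1.0 and 5.52% ± 0.11. As levels, Tmem41a (9.75 ± 1.36 and 9.13 ± 0.23 CPM, edgeR adjusted p = 0.793) and Tmem64 (42.6 ± 4.4 and 41.9 ± 2.3 CPM, edgeR adjusted p = 0.931, named after its value was seen) overlapped between the groups. The share of Tmem41b carries the choice of that gene and was not tested.

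Among the 5 ATG8 genes, Gabarap held 49.8% ± 0.9 (SD, n = 3) of the summed FPKM without Sora and 49.5% ± 0.8 with it. Gabarapl1 held 23.0% ± 0.9 and 21.2% ± 0.2, and Map1lc3b held 12.9% ± 0.5 and 12.7% ± 0.7. Map1lc3a held 4.84% ± 0.30 and 5.92% ± 0.47, and Gabarapl2, named after its values were seen, held 9.49% ± 0.42 and 10.63% ± 0.92. The groups did not overlap in the shares of Gabarapl1 (lower with Sora) and Map1lc3a (higher with Sora). Atg2a made up 66.3% ± 1.1 and 66.9% ± 1.0 of the ATG2 pair, Atg9a 81.1% ± 2.3 and 79.1% ± 1.9 of the ATG9 pair, and Ulk1 57.8% ± 0.7 and 56.1% ± 2.6 of the ULK pair.

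**Figure D3:**
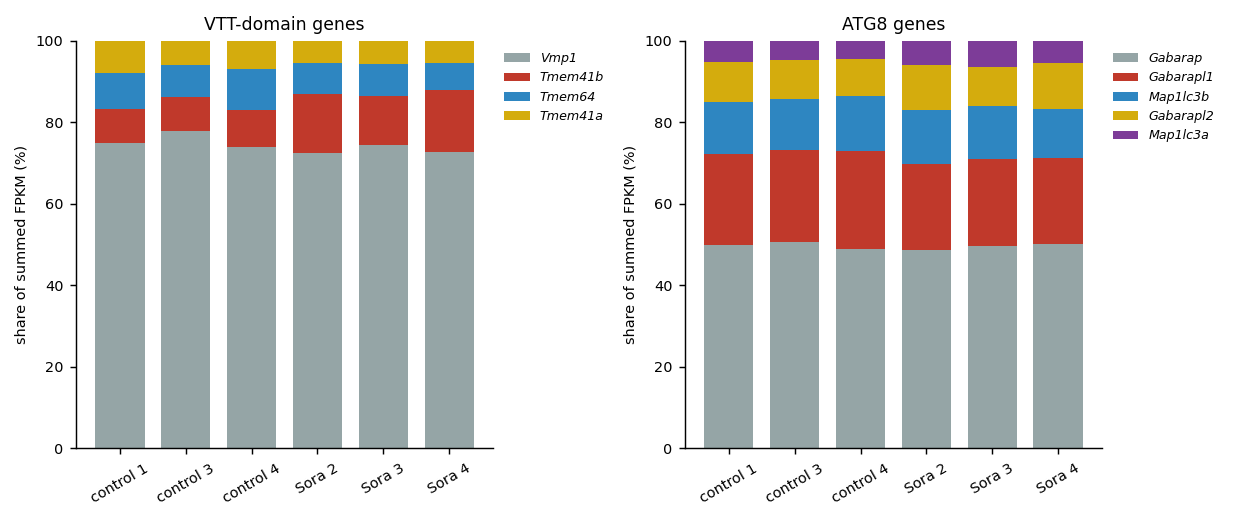
Share of the summed FPKM (vertical axis, percent) held by each of the 4 VTT-domain genes and each of the 5 ATG8 genes in every tumor, 1 stacked bar per tumor. The Tmem41b segment was 8.13% to 9.17% in control and 12.11% to 15.33% in Sora-treated tumors, while Vmp1 and Gabarap remained the widest segments of their families in all 6 tumors.

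The rest of the pathway was read from 12 lists with 126 other genes, of which 124 were tested. Of these, 1 was called higher and 3 lower (3.23%, against 3.29% of all genes tested), 58 log2 fold changes were above 0 and 66 below, 33 genes (26.6%, against 22.2% of all genes tested) had groups that did not overlap, and the median was -0.01. DESeq2 called 8 higher and 9 lower, 13.7% against 7.71% of all genes. The genes called by edgeR were Pik3c3, Deptor, and Sesn3, which fell, and Ctsl, which rose. In the other 9 lists (initiation complex, scramblases and lipid supply, conjugation, ATG8, cargo receptors, fusion, transcription factors, lipoprotein export, and lipid droplets) edgeR and limma voom called none of 79 genes and DESeq2 called 8. In edgeR, 17 of the 79 (21.5%) had an unadjusted p under 0.05, against 17.22% of all genes tested.

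Pik3c3 encodes VPS34, the catalytic subunit of the lipid kinase that Beclin 1 belongs to. It measured 46.20, 49.56, and 52.69 CPM in control tumors 1, 3, and 4, and 30.07, 37.72, and 28.42 CPM in Sora-treated tumors 2, 3, and 4. All Sora-treated tumors lay below the control tumors, with tumor 3 the nearest. It fell by 0.63 on the log2 scale (SE 0.11, edgeR adjusted p = 0.0182). Leaving out control tumor 4, Sora-treated tumor 2, or Sora-treated tumor 4 ended the call (edgeR adjusted p = 0.0657, 0.0687, and 0.104). So did limma on log2(FPKM + 1) or log2(FPKM + 0.1) of filtered genes, which gave an adjusted p of 0.0630 and 0.0671. The other 6 tested genes of its list ranged from Pik3r4, which encodes the regulatory partner of VPS34 and is named after its values were seen, to Atg14, which directs the kinase to the autophagosome. Pik3r4 measured 45.49, 39.28, and 40.25 CPM in control and 36.58, 37.15, and 37.2 CPM in Sora-treated tumors, without overlap, a log2 fold change of -0.17 that did not pass the test (edgeR adjusted p = 0.313). Atg14 was at 0.05 (edgeR adjusted p = 0.863), and the list median was -0.01.

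Deptor and Sesn3 encode inhibitors of mTORC1, the kinase complex that holds autophagy down when nutrients are present. Deptor measured 95.62, 91.08, and 103.4 CPM in control and 32.91, 63.97, and 30.90 CPM in Sora-treated tumors, and it fell by 1.18 on the log2 scale (SE 0.22, edgeR adjusted p = 0.0217). Sesn3 measured 54.52, 52.45, and 53.40 CPM in control and 33.39, 45.19, and 34.94 CPM in Sora-treated tumors, and it fell by 0.50 (SE 0.11, edgeR adjusted p = 0.0358). In both genes the groups did not overlap, and Sora-treated tumor 3 was the nearest to control. Without control tumor 1, control tumor 4, Sora-treated tumor 2, or Sora-treated tumor 4, the adjusted p of Deptor in edgeR was 0.0542, 0.0767, 0.0749, and 0.113. It was 0.167 with robust=TRUE and all 6 tumors. DESeq2 on the 5 deposited count columns, without Sora-treated tumor 4, gave Deptor an adjusted p of 0.0955. The edgeR adjusted p of Sesn3 was above 0.05 without any 1 tumor other than Sora-treated tumor 3. It ran from 0.0695 without control tumor 3 to 0.174 without Sora-treated tumor 4. Limma on filtered log2(FPKM + 1) and log2(FPKM + 0.1) gave Sesn3 an adjusted p of 0.0598 and 0.0631. The other 18 genes of the nutrient-sensing list were not called by edgeR. Ddit4, another mTORC1 inhibitor induced by stress, stood at 195.4 ± 48.6 and 262.1 ± 41.4 CPM with overlap (log2 fold change 0.42, edgeR adjusted p = 0.198).

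Ctsl encodes cathepsin L, a protease of the lysosome. It measured 608.3, 689.9, and 625.6 CPM in control tumors 1, 3, and 4, and 935.4, 785.6, and 1057 CPM in Sora-treated tumors 2, 3, and 4. The Sora-treated tumors all lay above the control tumors. It rose by 0.53 on the log2 scale (SE 0.11, edgeR adjusted p = 0.0300), with an adjusted p of 0.0991, 0.0970, 0.101, and 0.131 without control tumor 1, control tumor 4, Sora-treated tumor 2, or Sora-treated tumor 4. Of the 18 lysosomal genes, 5 log2 fold changes were above 0 and 13 below, with a median of -0.11. Groups did not overlap in 9 of the 18, against 22.2% of all genes tested. In edgeR, 6 of the 18 had an unadjusted p under 0.05, against 17.22% of all genes tested. At the low end stood Hexa, a subunit of a lysosomal hexosaminidase, at 203.0 ± 22.6 and 155.2 ± 16.0 CPM without overlap (log2 fold change -0.39, edgeR adjusted p = 0.0612).

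In the other lists the largest differences in each direction missed the threshold in edgeR. DESeq2 called 8 of the 79 genes of these lists (10.1%, against 7.71% of all genes). Atg101, a scaffold of the ULK kinase complex, stood at 17.3 ± 2.3 and 23.2 ± 2.0 CPM (log2 fold change 0.42, edgeR adjusted p = 0.0802), and Ulk2 had a log2 fold change of -0.13. Epg5, a tether for fusion with the lysosome, stood at 39.8 ± 2.2 and 49.4 ± 1.6 CPM (log2 fold change 0.31, edgeR adjusted p = 0.0525), with Vps41 at -0.15 in the same list. Mitf, a transcription factor of lysosomal genes, stood at 18.9 ± 1.4 and 14.2 ± 1.0 CPM (log2 fold change -0.42, edgeR adjusted p = 0.0569), while its relative Tfeb was at 0.08. Groups did not overlap in Atg101, Epg5, Mitf, and Tfeb.

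Among cargo receptors, Stbd1, a glycogen-binding protein, was at a log2 fold change of 0.45 and Optn at -0.38 (edgeR adjusted p = 0.0698 and 0.104). In the conjugation list, Atg16l1 was at 0.18 and Atg4c at -0.30. Among ATG8 genes, Map1lc3a was at 0.25 and Gabarap at -0.05, and in the lipid supply list Atg9b was at 0.35. In the lipoprotein export list, Tm6sf2 had the largest log2 fold change, 0.85, at under 1.1 CPM in every tumor and with overlap (edgeR adjusted p = 0.321), and Sar1a was at -0.05. Cidec, a lipid droplet protein, was at 0.73 with overlap (edgeR adjusted p = 0.177). It is also 1 of the 5 adipocyte markers, whose median log2 fold change was 0.65 with none called, and the part of fat cells in its value was not tested. Bscl2, which encodes seipin, was at -0.17. The list medians were -0.02 for cargo receptors, 0.11 for conjugation, 0.13 for ATG8, 0.02 for lipid supply, 0.06 for lipoprotein export, and 0.09 for lipid droplets. They were 0.03 for the initiation complex, -0.05 for both fusion and transcription factors, and 0.01 for nutrient sensing.

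Some of these medians changed in size or sign when a single tumor was left out. The ATG8 median was 0.05 without Sora-treated tumor 4 and 0.06 without control tumor 4, and the conjugation median was 0.04 without control tumor 1. That of cargo receptors was 0.01 without Sora-treated tumor 2, that of transcription factors 0.01 without control tumor 4, and that of lipid supply -0.05 without Sora-treated tumor 3, each with the sign turned. Over the fits without 1 tumor, the median ranged from 0.06 to 0.16 for lipid droplets, from 0.05 to 0.08 for lipoprotein export, and from 0.01 to 0.04 for the initiation complex. It ranged from -0.08 to -0.01 for fusion, from -0.01 to 0.02 for nutrient sensing, and from -0.14 to -0.07 for the lysosome. For the lipid kinase complexes, all 6 of these medians were below 0, the lowest -0.05.

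**Figure D4:**
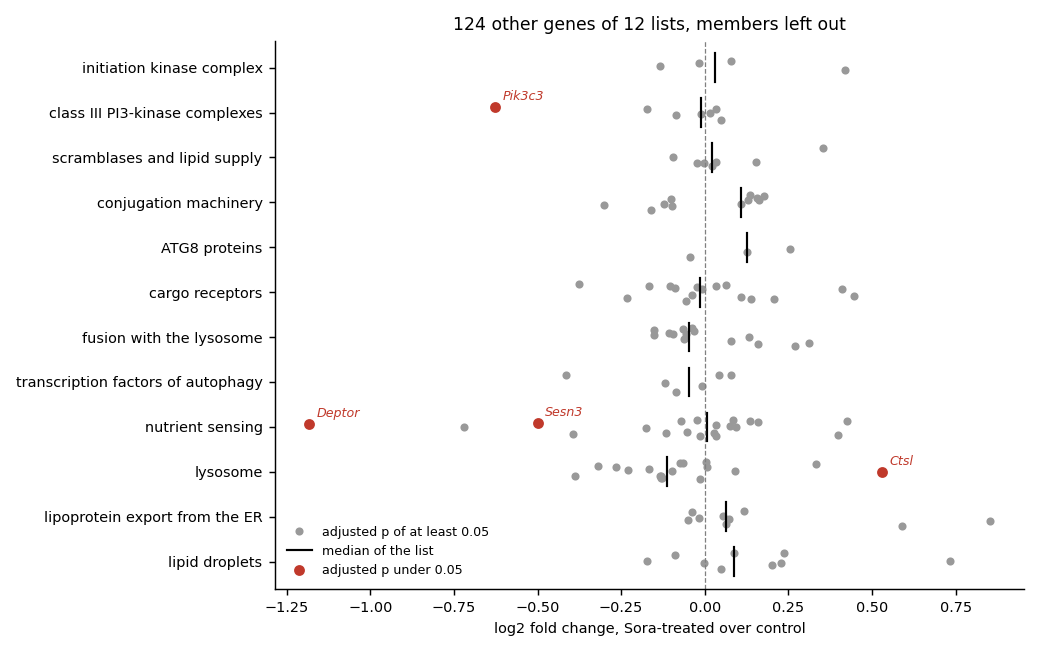
Log2 fold change, Sora-treated over control (horizontal axis), of 124 genes in 12 lists (vertical axis), the 10 members left out, with 1 point per gene, called genes in red, and the list median as a black bar. Deptor (-1.18), Pik3c3 (-0.63), Sesn3 (-0.50), and Ctsl (0.53) are the 4 genes called by edgeR, and the list medians lie between -0.11 and 0.13.

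The genes whose levels over the 6 tumors were most like that of Tmem41b were found by Pearson's r on log2(CPM + 1) among 10082 genes with a mean of at least 10 CPM. These r values describe 6 tumors in 2 groups, rest largely on the gap between the groups, and have no p. The filter is on the mean of all 6 tumors, so a gene under 10 CPM in control tumors entered only if it was higher in Sora-treated tumors, as Zbtb32 (7.01 and 13.9 CPM) and Prss22 (5.02 and 20.6 CPM) did. The highest belonged to Cd82 (0.997), a membrane tetraspanin, Zbtb32 (0.997), a zinc finger repressor, Tiparp (0.996), a target of the aryl hydrocarbon receptor, Noct (0.996), the nocturnin phosphatase, and Prss22 (0.995), a serine protease. By the choice on r, Tiparp had the same order of Sora-treated tumors as Tmem41b, with 101.7, 81.95, and 115.9 CPM in Sora-treated tumors 2, 3, and 4 beside 52.56, 54.84, and 59.84 CPM in control tumors. The lowest r belonged to Ldlrad3 (-0.999), Ddit4l (-0.998), Add3 (-0.994), Laptm5 (-0.993), and Gm41756 (-0.993). Ddit4l, an mTORC1 inhibitor related to Ddit4, measured 20.77, 20.53, and 19.12 CPM in control and 10.42, 13.13, and 10.17 CPM in Sora-treated tumors. Among the members, the same r was 0.898 for Vmp1, 0.809 for Atg9a, 0.782 for Sqstm1, 0.090 for Atg2a, -0.088 for Atg2b, -0.582 for Becn1, -0.645 for Map1lc3b, -0.749 for Gabarapl1, and -0.835 for Ulk1.

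The nearest genes of the tables on either side of Tmem41b showed no such difference. Dennd5a, which encodes an activator of Rab GTPases, lies 10.7 kb away with 171.8 and 165.6 CPM as group means (log2 fold change -0.05, edgeR adjusted p = 0.792). On the other side, the noncoding gene 1600010M07Rik, 11.6 kb away, was near 1 CPM in both groups (log2 fold change 0.09, edgeR adjusted p = 0.931). Within 1 Mb, a window chosen after the values were seen, 22 other genes were tested, with a median log2 fold change of 0.08.

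Of those 22 genes, 3 were called, where 3.29% of all genes tested were, all higher (1.94% of all genes) and all named after their values were seen: Ipo7, Gm32861, and Ampd3. Ipo7, which encodes the nuclear import receptor importin 7, lies 31.5 kb away and measured 474.6, 467.6, and 525.7 CPM in control and 738.6, 569.9, and 851.2 CPM in Sora-treated tumors. As in Tmem41b, Sora-treated tumor 3 was the lowest of the Sora-treated tumors and lay above all control tumors. That tumor lay nearest to the control tumors in 80.85% of all genes called by edgeR. The log2 fold change of Ipo7 was 0.56 (SE 0.13, edgeR adjusted p = 0.0425). Leaving out any 1 tumor other than Sora-treated tumor 3 ended the call, with an edgeR adjusted p of 0.0886 to 0.176. Limma on filtered log2(FPKM + 1) and log2(FPKM + 0.1) gave Ipo7 an adjusted p of 0.0715 and 0.0736. Ampd3, an AMP deaminase, had a log2 fold change of 0.52 (edgeR adjusted p = 0.0188), with 0.0608 without control tumor 1 and 0.104 without Sora-treated tumor 4. The noncoding Gm32861, at 1.37 and 3.89 CPM, had a log2 fold change of 1.5 (edgeR adjusted p = 0.0130), with 0.0911 without Sora-treated tumor 4.

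**Figure D5:**
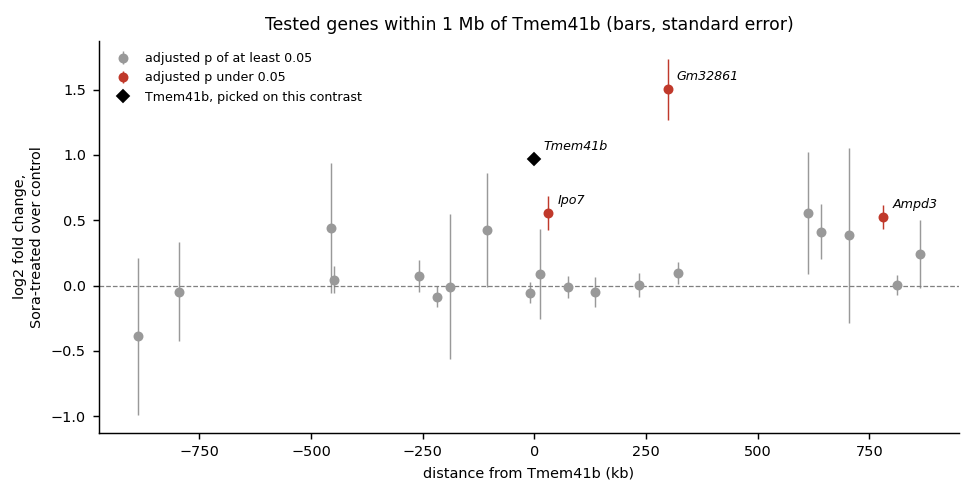
Log2 fold change, Sora-treated over control (vertical axis, bars ± SE), of 22 tested genes within 1 Mb of Tmem41b against their distance from it in kb (horizontal axis), with Tmem41b as a diamond without an error bar. Ipo7 (0.56), Gm32861 (1.5), and Ampd3 (0.52) are the genes in red, with an adjusted p under 0.05, and Dennd5a, 10.7 kb from Tmem41b, lies at -0.05.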

How the data were processed

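RNA-seq of 6 tumors, 1 library each, was analyzed. The authors deposited counts, whole reads per gene without normalization, for 5 of the tumors used here, and FPKM, those counts scaled by gene length and library size, for all 6. The paper names Bowtie2 and GRCm38, while the submitters' processing notes list fastp, HISAT2, HTSeq, R 3.2.0, DESeq2, and GRCm39. Use of strand is not given in the sources used here. Coordinates are those of RefSeq and GENCODE M21 on GRCm38.p6, matched by symbol.

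Counts of Sora-treated tumor 4 were derived from FPKM and the lengths. Treating each of the 5 other tumors as unknown returned every count of 20969 to 21229 genes exactly. In Sora-treated tumor 4, 342 genes without a known length, with 512 reads (0.0015%), were left at 0. A minimum of 10 counts in 3 or more tumors was required, and counts were tested with edgeR 4.0.16 in R 4.3.3 (glmQLFit and glmQLFTest, robust=FALSE, TMM scaling, group only) with Benjamini-Hochberg adjustment over 16513 genes and a threshold of 0.05. The biological coefficient of variation was 0.132. SE is the log2 fold change divided by the square root of F. Scripts were tested on simulated data.

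Alternatives were DESeq2 1.42.0, limma 3.58.1 (voom, and the deposited FPKM as log2 with a pseudocount of 1 or 0.1 and a minimum of 1 FPKM in 3 tumors, or with a pseudocount of 1 and no filter), other scalings and filters, robust=TRUE, a replicate block, and leaving out each tumor. DESeq2 on the 5 deposited count columns was added after seeing the data.

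The members, the 12 pathway lists, and the marker lists, written from general knowledge, were chosen with earlier results of these data known. Genes named by rule are the members, called list genes, the largest rise and fall of each list, the 5 highest and 5 lowest r with Tmem41b, and its nearest gene on each side. Marker genes and overlapping genes are named as such, and Pik3r4, Tmem64, Gabarapl2, Ipo7, Gm32861, and Ampd3 were named after their values were seen.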

Additional observations from a re-analysis of the deposited data

How the results depend on the processing

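The log2 difference of Tmem41b stayed between 0.86 and 1.09 over 19 other settings, and none of the 9 other members was called in any of them. Pik3c3, Deptor, Sesn3, and Ctsl kept their direction in all 19. Over the fits without 1 tumor, genes called higher ranged from 4 to 574 and lower from 1 to 571, where the fit of all 6 tumors gave 321 and 222. The low ends came without Sora-treated tumor 4 and the high ends without Sora-treated tumor 3. Other pathway genes called higher ranged from 0 to 5 (1 with all tumors) and lower from 0 to 8 (3 with all tumors). Both high ends came without Sora-treated tumor 3. None was called higher without control tumor 1, Sora-treated tumor 2, or Sora-treated tumor 4, and none lower without control tumor 4, Sora-treated tumor 2, or Sora-treated tumor 4.

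Genes called higher and lower numbered 619 and 575 in DESeq2 (8 and 9 of the other pathway genes), and 570 and 577 with no filter (7 and 6). They numbered 180 and 106 on log2(FPKM + 1) and 166 and 86 on log2(FPKM + 0.1), with 2 and 1 pathway genes in each. No gene was called by limma on log2(FPKM + 1) of all genes (0 in every count, 3115 genes at an unadjusted p under 0.05). Pathway genes called numbered 3 higher with robust=TRUE, 2 higher at a mean of 50 counts, and 2 lower in DESeq2 on the 5 deposited columns. The cause was not tested.

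Pik3c3, Deptor, Sesn3, and Ctsl were called in 12, 12, 10, and 13 of the 19 settings. Replicate numbers 3 and 4 are shared by the groups, but same-numbered tumors did not deviate together (r = -0.033 and -0.074 across genes), so the numbers were not treated as pairs. A replicate block gave 80 genes called higher and 45 lower, with 0 and 1 of the pathway genes. Numbers 1 and 2 each occur in a single group, so in that fit the group difference rests on tumors numbered 3 and 4. Each of the 10 members had at least 1102 reads in every tumor.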
